A study of Mus musculus with 18 samples.

Results

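The 84 oxidative phosphorylation genes of the muscle RNA-seq table were examined across age. They were chosen by symbol from the 23420 genes of the table: Nduf genes of the a, b, c, s and v series for complex I (37 genes), Sdha to Sdhd for complex II (4), Uqcr genes for complex III (8), Cox4 to Cox8 genes for complex IV (18) and Atp5 genes for complex V (17). The choice used names and no measured value. Of the 84, 81 had a mean normalized count of at least 10 and were tested, among 13178 genes tested in all. All groups came from untreated female C57BL/6J mice, 3 per age, that were 2 months (2 m), 20 months (20 m) or 28 months old (28 m). Poly-A RNA was sequenced from the hindlimb muscle of each mouse, which gave 9 libraries. MBD-seq, the sequencing of DNA fragments pulled down by a protein domain that binds methylated CpGs, was made from the muscle and the splenic T cells of the same ages, with the DNA of the 3 mice of an age pooled. Hindlimb muscle is a mixture of several muscles and cell types, so fewer cells of a type and less RNA per cell could not be told apart in any of the values below.

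Oxidative phosphorylation makes most of the ATP of a working muscle. Complex I (NADH dehydrogenase) and complex II (succinate dehydrogenase) pass electrons to coenzyme Q, complex III (cytochrome bc1) hands them to cytochrome c, and complex IV (cytochrome c oxidase) hands them to oxygen. Complexes I, III and IV pump protons across the inner mitochondrial membrane, and complex V (ATP synthase) uses that gradient to make ATP. The subunits measured here are encoded in the nucleus, while a core set of subunits of complexes I, III, IV and V is encoded by the mitochondrial genome. Slow and fast oxidative fibres are rich in mitochondria, and several subunits of complex IV have a form that is specific to heart and skeletal muscle.

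The libraries held 20203833 to 71115244 reads assigned to genes. The 3 libraries numbered 3 stood apart at every age: 2.36 to 2.50% of their reads were not aligned against 4.39 to 5.39% in the others. Their normalized counts summed to 38131628 to 39602607 against 47840578 to 52950481. Muscle genes such as Acta1 and Ckm gave 3065734 to 4410027 normalized counts per library, and of 8 such genes 3 were called higher at 20 m (Des, Neb and Myot) and 2 at 28 m (Des and Myot). Of 9 slow fibre markers, 8 were called higher in both aged groups. The summed slow fibre markers were 14751, 129596 and 30909 normalized counts in the 3 libraries at 2 m, 179167 to 316410 at 20 m and 222653 to 280699 at 28 m, so 2 m did not overlap the older ages. Of 6 fibroblast and matrix markers 3 were called lower in both aged groups, with sums of 51087 to 106411 at 2 m, 21889 to 24764 at 20 m and 21815 to 29894 at 28 m. Adipocyte markers were called lower for 5 of 7 at 20 m and 2 of 7 at 28 m. Of 9 fast fibre markers, 1 was called higher and 2 lower at 20 m, and 1 higher and 3 lower at 28 m. At 20 m 2 of 5 Schwann cell and 2 of 7 macrophage markers were called lower. The first 2-m library alone carried markers of neutrophils and marrow (5356 normalized counts against 16.8 to 86.1 in the other 8) and of bone and cartilage (1794 against 5.06 to 104), and it was highest in red blood cell markers (1830 against 110 to 413). The part of these markers in the values below was not tested.

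The oxidative phosphorylation genes had slightly lower values in aged muscle, and the libraries of one age differed by as much as the ages did. For each gene the log2 of the normalized count plus 1 was set against its mean over the 9 libraries. The median of this deviation over the 81 genes was 0.06, 0.27 and 0.03 in the 3 libraries at 2 m, −0.07, −0.05 and −0.11 at 20 m, and −0.13, 0.19 and −0.19 at 28 m. The second 2-m library held the highest value of the 9 for 60 of the 81 genes and the second 28-m library for 11. The 20-m libraries lay close together, and the 28-m libraries spread over most of the range of the plot.

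**Figure D1:**
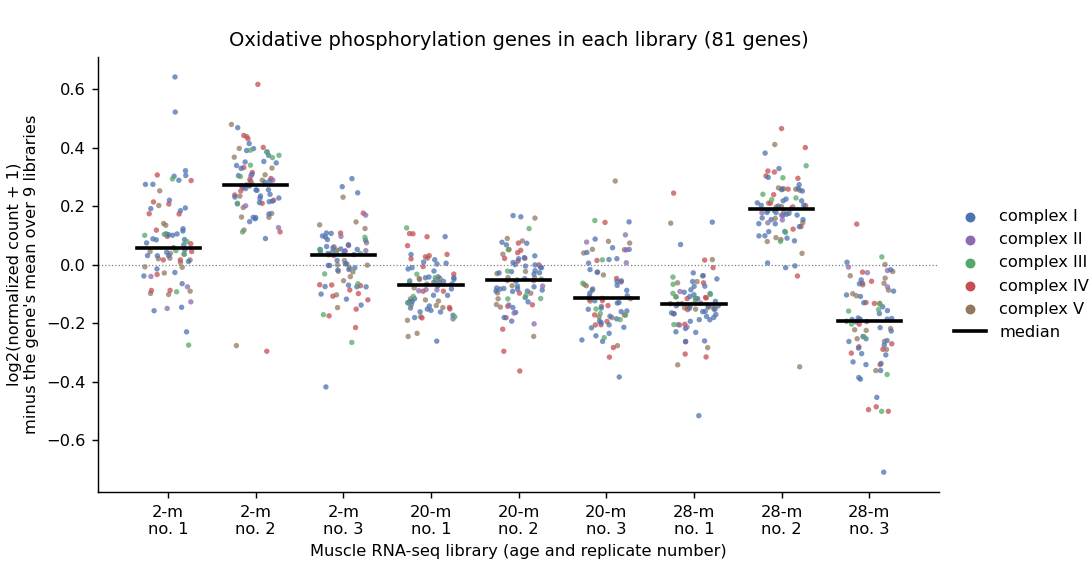
Each point is 1 of 81 genes in 1 muscle RNA-seq library, as log2(normalized count + 1) minus the gene's mean over the 9 libraries, coloured by complex, and black lines are medians. The medians of the second 2-m and second 28-m libraries (0.27 and 0.19) stand above those of the other 7 (−0.19 to 0.06).

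The summed share of these genes in all gene reads overlapped between the ages. It was 1.5, 1.89 and 2.02% at 2 m, 1.49, 1.49 and 2.00% at 20 m, and 1.37, 1.89 and 1.88% at 28 m. Means were 1.80% ± 0.271 (SD, n = 3), 1.66% ± 0.294 and 1.71% ± 0.297. Complex V took the largest share (0.696% ± 0.113 at 2 m, SD, n = 3), followed by complex I (0.501% ± 0.0695), complex IV (0.275% ± 0.0327), complex III (0.190% ± 0.0307) and complex II (0.141% ± 0.0287). Per kilobase of transcript the order was different. The median level over all libraries was 16195 normalized counts per kb for complex IV, 12160 for complex V, 10827 for complex III, 9580 for complex II and 6087 for complex I. Atp5b, the catalytic beta subunit of ATP synthase, was the highest gene at 52860 normalized counts per kb, and Cox6a2, a complex IV subunit of heart and skeletal muscle, was second at 37246.

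At 20 m against 2 m, 5 of the 81 genes were called lower and 0 higher (limma, Benjamini-Hochberg adjusted p under 0.05 over all 13178 genes). Of all genes tested 7.13% were called lower and 9.42% higher, so the share of these genes called lower, 6.17%, was near the background in this fit. The number called moved with the libraries and terms of the fit, as given further on. The differences were small and mostly of one sign. Log2 fold changes were below 0 for 77 of 81 (95.1%), against 52.1% of all genes, with a median of −0.18 against −0.02. The median difference amounted to −11.9%. An unadjusted p under 0.05 was reached by 20 of the 81 genes, all lower. Of all 13178 genes, 1945 reached it lower and 2208 higher. The 3 libraries at 20 m lay below all 3 at 2 m for 32 of 81 genes, where 17.6% of all genes did so. These were 18 of 37 in complex I, 2 of 8 in complex III, 5 of 15 in complex IV, 7 of 17 in complex V and 0 of 4 in complex II.

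The medians of the complexes at 20 m against 2 m lay close together. They were −0.20 for complex I, −0.15 for complex II, −0.20 for complex III, −0.15 for complex IV and −0.16 for complex V on the log2 scale, with a median standard error of 0.11 per gene. Single genes ranged from −0.54 for Ndufa4l2 to 0.06 for Uqcrc2. No gene passed a fold change of 2 with an unadjusted p under 0.05, where 5.17% of all genes did.

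At 28 m against 2 m, 1 of the 81 genes was called lower (Ndufc1) and 0 higher, with 6.24% of all genes called lower and 7.53% higher. This comparison shares its 2-m libraries with the one before. Values below 0 were found for 73 of 81 genes, with a median of −0.17 (−11.3%) against −0.01 for all genes. Groups did not overlap, with 28 m lower, for 5 genes, where 15.0% of all genes did so. By complex the medians were −0.21, −0.08, −0.16, −0.18 and −0.13 from I to V. The range ran from −0.56 for Ndufa4l2 to 0.36 for Cox4i2. A fold change of 2 with an unadjusted p under 0.05 was passed by 0 of 81 genes and by 5.14% of all genes.

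Between 28 m and 20 m, 0 of the 81 genes were called by limma, and edgeR and DESeq2 on the recovered reads also called 0. An unadjusted limma p under 0.05 was found for 1 gene in each direction, Cox7a2l at −0.22 and Cox8a at 0.29. Of all 13178 genes, 717 reached it lower and 679 higher. Calls were rare among all genes as well (0.167% lower and 0.212% higher). The median over the 81 genes was 0.02, and the complexes had medians of 0.02, 0.06, 0.05, −0.02 and 0.04 from I to V. A fold change of 2 with an unadjusted p under 0.05 was passed by 1.31% of all genes and by none of these. The median of complex IV changed sign with scaling, to 0.01 when each library was scaled to the same sum and 0.07 with quantile normalization.

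**Figure D2:**
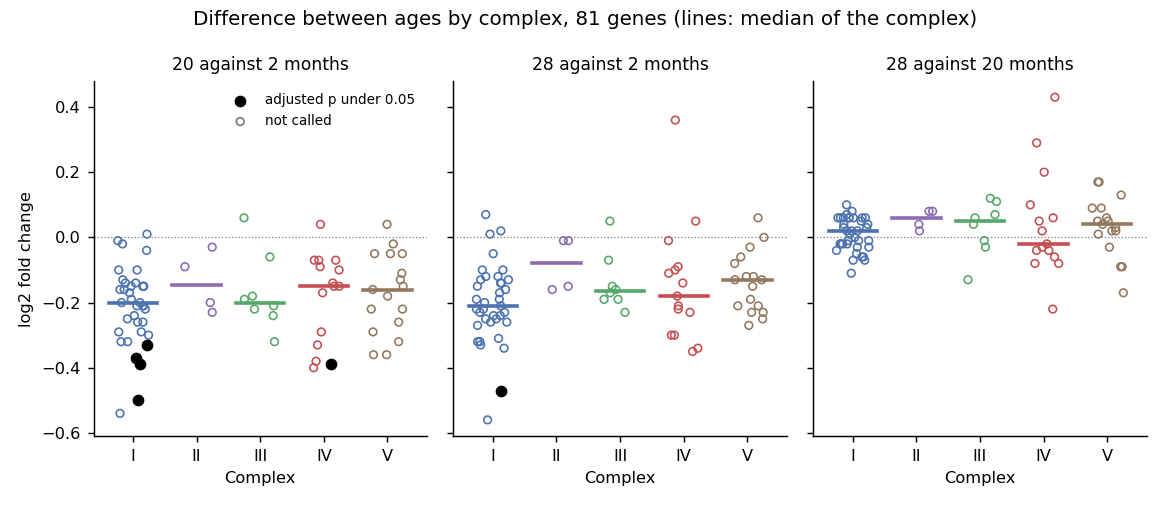
Log2 fold changes of 81 genes by complex (x axis) for the 3 age contrasts. Filled points have an adjusted p under 0.05, open points do not, and lines are complex medians. Both contrasts with 2 m lie mostly below 0 in every complex, while 28 m against 20 m lies around 0, where the complex IV median of −0.02 turns to 0.01 with equal sums.

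The library left out decided how many genes were called. Of all genes tested, 16.6% were called in either direction at 20 m and 13.8% at 28 m with all libraries. Without the second 28-m library the genes called lower at 28 m against 2 m were 22, with a median of −0.28, and 14% of all genes were called. The same omission raised the number at 20 m against 2 m from 5 to 14, through the shared estimate of the spread, with 16.9% of all genes called. Without the first 2-m library, the second 2-m library, or the 20-m libraries 1 or 3, the number at 20 m was 1, with 8.20 to 15.1% of all genes, and without the second 20-m library it was 2, with 9.59%. Leaving out the second 2-m library brought the medians to −0.11 at 20 m and −0.09 at 28 m, and leaving out the third 28-m library brought the 28-m median to −0.09. With the 2 libraries per age that were not numbered 3, the genes called were 2 (Ndufa1 and Ndufc1) at 20 m and 1 (Ndufc1) at 28 m, with 8.34 and 5.40% of all genes. With all libraries and a term for those numbered 3, they were 11 and 9, with 21.6 and 18.4% of all genes. Scaling each library to the same sum left 0 called at either age, with 4.45 and 4.20% of all genes, and the medians were then −0.17 and −0.13.

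Ndufc1, a small accessory subunit in the membrane arm of complex I, had the smallest adjusted p of the set in both contrasts with 2 m. It had 5102, 5198 and 5007 normalized counts at 2 m, 3602, 3572 and 3683 at 20 m, and 3408, 4100 and 3571 at 28 m. All 6 aged libraries lay below all 3 young ones, and the 3 libraries of 2 m and of 20 m lay close together. It fell by 0.50 on the log2 scale at 20 m (SE 0.08, limma adjusted p = 0.00135) and by 0.47 at 28 m (SE 0.08, limma adjusted p = 0.00196). Scaling each library to the same sum kept the sizes at −0.48 and −0.43 but ended both calls (limma adjusted p = 0.211 and 0.314). The gene lies on chromosome 3, from 51404677 to 51408988 on the minus strand (GRCm38, GENCODE vM21), and shares no exon base with another annotated gene.

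The other 3 complex I subunits called at 20 m are small accessory proteins as well. Ndufa1, an X-linked membrane arm subunit, had 2623, 2756 and 2205 normalized counts at 2 m, 1919, 1996 and 1831 at 20 m, and 1918, 2406 and 1717 at 28 m (20 m against 2 m −0.39, SE 0.12, limma adjusted p = 0.0413). The ages 2 m and 20 m did not overlap, while the second 28-m library lay within the 2-m range. Ndufc2, the partner of Ndufc1 in the membrane arm, had 3753, 3692 and 3042 at 2 m, 2716, 3019 and 2566 at 20 m, and 2717, 3214 and 2827 at 28 m (−0.33, SE 0.10, limma adjusted p = 0.0415). The third 2-m library was only just above the highest 20-m library. Ndufb2, another membrane arm subunit, had 3820, 4384 and 3581 at 2 m, 3056, 2951 and 3058 at 20 m, and 2875, 3908 and 2806 at 28 m (−0.37, SE 0.12, limma adjusted p = 0.0485). At 28 m against 2 m these 3 genes were at −0.34, −0.26 and −0.31, with limma adjusted p of 0.0852, 0.118 and 0.106.

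Cox8a, the form of a small complex IV subunit found in most tissues, was the only gene outside complex I called with age as the only term. It had 1070, 1093 and 959 normalized counts at 2 m, 837, 795 and 744 at 20 m, and 920, 1157 and 847 at 28 m. The 20-m libraries lay below all others of the gene. The log2 fold change was −0.39 at 20 m (SE 0.12, limma adjusted p = 0.0390) and −0.10 at 28 m (SE 0.12, limma adjusted p = 0.610). Between 28 m and 20 m it was 0.29, which was not called (limma adjusted p = 0.413).

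**Figure D3:**
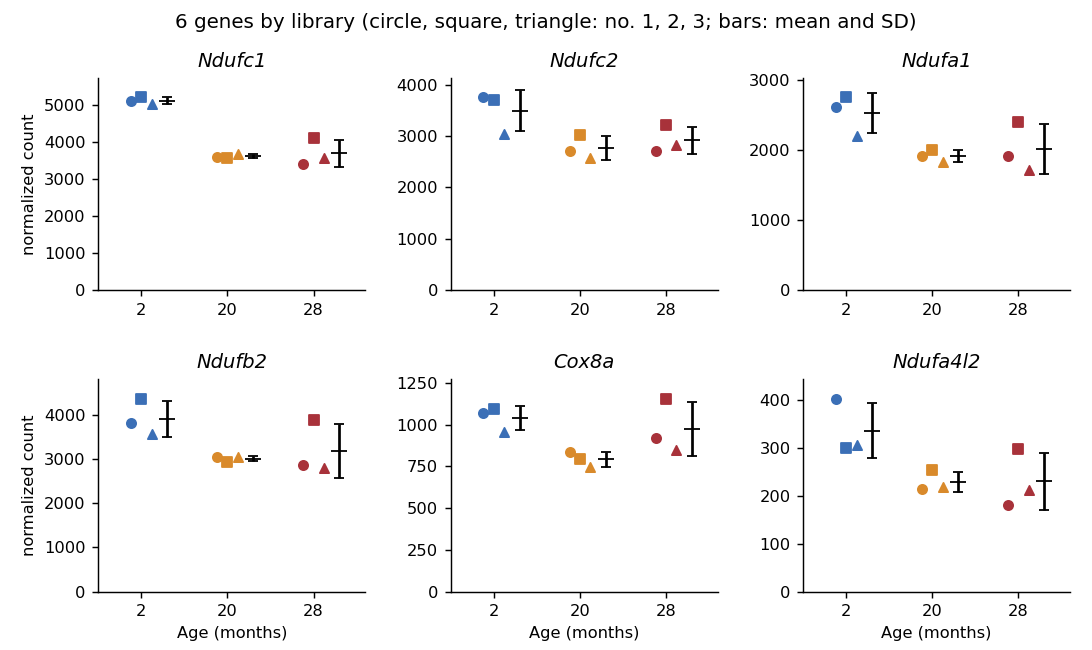
Normalized counts of 6 genes (y axis from 0) by age in months. Circles, squares and triangles are libraries 1, 2 and 3, and bars are the mean and SD. Ndufc1 separates 2 m from both older ages, while in Ndufb2, Ndufa1 and Cox8a the second 28-m library lies in or above the 2-m range.

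The stretches before the start sites of these genes are shown because the MBD-seq readout, given further on, covers them. CpG dinucleotides, the sites that the capture protein reads when methylated, are in capitals. Cox8b is added as the muscle form that pairs with Cox8a. Sequences are from RefSeq (GRCm38.p6), 5′ to 3′ on the strand of the gene, and end where the annotated transcripts begin. Ndufc1 is chr3:51408989-51409205 (minus), Ndufc2 is chr7:97399753-97400002 (plus), Cox8a is chr19:7217617-7217866 (minus) and Cox8b is chr7:140900447-140900696 (minus).
Ndufc1: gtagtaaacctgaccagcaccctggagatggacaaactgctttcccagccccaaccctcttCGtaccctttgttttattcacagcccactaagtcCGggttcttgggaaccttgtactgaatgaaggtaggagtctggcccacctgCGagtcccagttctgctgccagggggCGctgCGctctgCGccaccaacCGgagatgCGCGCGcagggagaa
Ndufc2: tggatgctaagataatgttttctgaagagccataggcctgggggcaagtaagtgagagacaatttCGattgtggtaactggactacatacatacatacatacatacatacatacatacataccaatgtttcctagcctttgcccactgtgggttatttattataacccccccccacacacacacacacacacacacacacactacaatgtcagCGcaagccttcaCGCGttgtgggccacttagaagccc
Cox8a: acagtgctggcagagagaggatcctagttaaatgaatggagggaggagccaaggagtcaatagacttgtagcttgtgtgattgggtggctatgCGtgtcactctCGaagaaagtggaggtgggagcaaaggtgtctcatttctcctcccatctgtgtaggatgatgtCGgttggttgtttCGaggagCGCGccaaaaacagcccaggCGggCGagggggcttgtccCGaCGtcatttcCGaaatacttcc
Cox8b: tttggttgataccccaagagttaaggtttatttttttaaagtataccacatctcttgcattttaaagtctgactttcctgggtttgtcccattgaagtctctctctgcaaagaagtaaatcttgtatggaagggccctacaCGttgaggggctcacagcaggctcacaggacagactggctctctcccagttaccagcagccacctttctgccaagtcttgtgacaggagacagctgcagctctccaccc
The 217 bases of Ndufc1 hold 10 CpGs, and the 250 bases of the others hold 4 in Ndufc2, 11 in Cox8a and 1 in Cox8b.

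Of the core subunits of complex I, most of which bind flavin or iron-sulfur clusters, 6 are given here, with log2 fold changes against 2 m between −0.24 and 0.07. Ndufv1, which binds NADH, was at 0.01 at 20 m and 0.07 at 28 m. It had 10937, 13757 and 11376 normalized counts at 2 m, 11655, 11593 and 12961 at 20 m, and 11114, 15320 and 11658 at 28 m, so all ages overlapped. Ndufs1, the largest subunit, was at −0.01 and 0.01. Ndufv2 was at −0.10 and −0.21, Ndufs3 at −0.16 and −0.10, Ndufs7 at −0.17 and −0.24 and Ndufs8 at −0.19 and −0.20. None of these 6 was called in any contrast (limma adjusted p of 0.120 and above against 2 m). Ndufs5 was low for a structural subunit, with 81.2 to 192 normalized counts.

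Ndufa4l2, a relative of Ndufa4 that is known for its induction by low oxygen, had the lowest log2 fold change of the 81 in both contrasts with 2 m. It had 403, 300 and 306 normalized counts at 2 m, 215, 253 and 219 at 20 m, and 180, 297 and 213 at 28 m. Neither aged group overlapped the 2-m libraries, although the second 28-m library came within a few counts of them. The differences, −0.54 and −0.56 (SE 0.19 each), were not called (limma adjusted p = 0.0710 and 0.0702). Ndufa4, which is named for complex I and is now regarded as a complex IV subunit, made up 98.5% ± 0.290 (SD, n = 3) of the summed Ndufa4 and Ndufa4l2 per kb at 2 m and 98.9% at both older ages.

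No gene of complex II, which also works in the citric acid cycle, was called, which for 4 genes is near the background of 7.13 and 6.24% of all genes called lower. Sdha, the flavoprotein that oxidizes succinate, had 30070, 35853 and 33930 normalized counts at 2 m, 30928, 31213 and 35242 at 20 m, and 29984, 36268 and 32651 at 28 m. Its log2 fold changes of −0.03 and −0.01 were far inside the standard error of 0.10. Sdhb, the iron-sulfur subunit, was at −0.20 and −0.16, and the membrane anchors Sdhc and Sdhd were at −0.09 and −0.23 at 20 m and at −0.01 and −0.15 at 28 m. All 4 genes overlapped between every pair of ages.

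In complex III, 0 of 8 genes were called by limma with age as the only term, which at 7.13 and 6.24% of all genes called lower is near the background. With the replicate number as a block, Uqcrb and Uqcrh were called lower at 20 m and Uqcrb at 28 m. All genes called in either direction were then 22.8 and 19.2%. Of the 2 core proteins, Uqcrc1 was at −0.19 at 20 m and −0.15 at 28 m, and Uqcrc2 at 0.06 and 0.05. Uqcrfs1, the Rieske iron-sulfur protein, had 14167, 17819 and 13527 normalized counts at 2 m and 12821, 12849 and 13232 at 20 m. These groups did not overlap, but the difference of −0.22 (SE 0.11) was not called (limma adjusted p = 0.217). Uqcrh, the hinge protein that helps cytochrome c bind, had 7048, 8753 and 6867 at 2 m, 5897, 6153 and 6007 at 20 m, and 6181, 7884 and 5796 at 28 m. It had the smallest adjusted p of the complex at 20 m (−0.32, SE 0.12, limma adjusted p = 0.0811). Uqcrb, an accessory subunit, was nearest to a call at 28 m (−0.23, SE 0.10, limma adjusted p = 0.146).

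Cox5a and Cox5b are complex IV subunits without a muscle form. Cox5a had 16264, 19787 and 16152 normalized counts at 2 m, 13209, 13216 and 15137 at 20 m, and 13010, 16302 and 13015 at 28 m (−0.33 and −0.30, SE 0.11 each, limma adjusted p = 0.0619 and 0.0889). The 2-m and 20-m libraries did not overlap. Cox5b was at −0.07 and −0.09 (SE 0.15). Cox7a2l, which is known as a factor of respiratory supercomplexes rather than a regular subunit, was at 0.04 at 20 m and −0.18 at 28 m. It had 2918, 3228 and 3125 at 2 m, 3213, 2985 and 3301 at 20 m, and 2416, 2907 and 2871 at 28 m, so the 28-m libraries lay below those of both other ages. Neither comparison was called (limma adjusted p = 0.199 against 2 m and 0.409 against 20 m).

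Several complex IV subunits come in a muscle form and a general form, and the muscle forms dominated at every age. Shares were taken from levels per kb of transcript within a family. Cox6a2 made up 96.8, 97.2 and 96.7% of the Cox6a genes at 2 m, 97.4, 97.9 and 97.2% at 20 m, and 97.6, 97.4 and 96.7% at 28 m. Cox8b made up 92.8, 93.4 and 92.0% of Cox8a and Cox8b at 2 m, 94.0, 94.0 and 93.6% at 20 m, and 92.5, 93.0 and 91.1% at 28 m. The 20-m share of Cox8b lay above both other ages without overlap, by 1.1 percentage points over 2 m and 1.67 over 28 m. A two-sided exact permutation test of 3 against 3 libraries gave p = 0.10 for both, the smallest it allows.

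Cox7a1, the muscle form of Cox7a, held a smaller majority of its family. It had 81, 82.0 and 78.0% of Cox7a1 and Cox7a2 at 2 m, 78.0, 78.1 and 77.0% at 20 m, and 74.5, 79.9 and 72.4% at 28 m. The means were 80.3% ± 2.07 (SD, n = 3), 77.7% ± 0.603 and 75.6% ± 3.84, and the ages overlapped. The differences from 2 m were −2.65 and −4.74 percentage points (two-sided exact permutation p = 0.200 each). Over the 27 tests of family shares the smallest Benjamini-Hochberg adjusted exact p was 0.600. Cox4i1 held 99.6 to 99.7% of Cox4i1 and Cox4i2 on average, and Cox6b1 held 99.9% of the Cox6b genes. Cox4i2, a form best known from lung, had 38.8 to 55.7 normalized counts at 2 m, 38.8 to 46.3 at 20 m and 52.8 to 63.5 at 28 m.

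The testis forms of these families were near or at 0. Cox8c was listed at 0 in all 9 libraries, Cox7b2 had a mean of 0.460 normalized counts at 28 m and 0 at the other ages, and Cox6b2 ranged from 0 to 24.9. These were the 3 genes not tested.

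**Figure D4:**
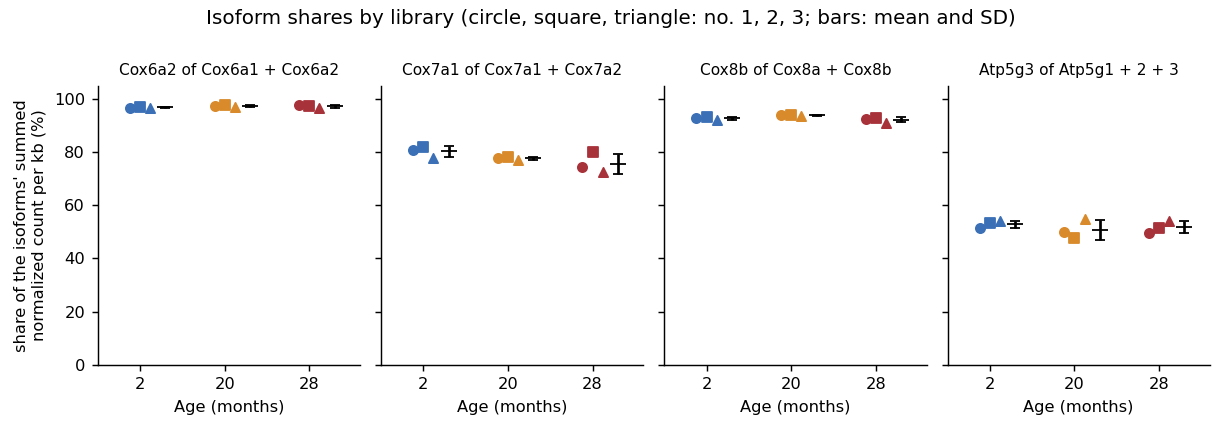
Share (%, y axis from 0) of 1 isoform in the summed normalized count per kb of its family, by age in months. Points are libraries 1, 2 and 3 (circle, square, triangle), and bars are the mean and SD. The muscle forms Cox6a2 (96.9 to 97.5% on average) and Cox8b (92.2 to 93.9%) hold nearly all of their families at every age.

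Complex V had no called gene among 17 with age as the only term. Of all genes 7.13 and 6.24% were called lower by limma at 20 m and 28 m, so few calls or none are near the background in this fit. With the replicate number as a block, Atp5d, Atp5e, Atp5g1, Atp5g2, Atp5g3 and Atp5k were called lower at 20 m, beside 22.8% of all genes in either direction. With a term for the libraries numbered 3, Atp5e was called lower at 20 m, beside 21.6%. Atp5b had 93094, 110922 and 97441 normalized counts at 2 m, 95927, 97066 and 97403 at 20 m, and 94957, 113772 and 93333 at 28 m, with log2 fold changes of −0.05 and 0.00 (SE 0.11). Atp5a1, the alpha subunit, was at −0.05 and −0.03, and Atp5c1, the gamma shaft, at −0.02 and −0.06. Atp5d, the delta subunit of the central stalk, had 10503, 13059 and 10835 normalized counts at 2 m, 9178, 9449 and 9409 at 20 m, and 9346, 12459 and 9901 at 28 m (−0.29 and −0.12, SE 0.11 each). Atp5e, the epsilon subunit beside it, had 9281, 10409 and 7941 at 2 m, 7338, 7544 and 7127 at 20 m, and 7300, 9623 and 6768 at 28 m (−0.32 and −0.23, SE 0.13 each). In both genes 20 m lay below all of 2 m and 28 m overlapped it, and neither was called (limma adjusted p = 0.0932 and 0.511 for Atp5d, 0.10 and 0.255 for Atp5e). The 3 genes for the proton-carrying c ring encode the same mature protein. Atp5g3 had 14980, 19763 and 16142 at 2 m, 12303, 12305 and 14995 at 20 m, and 11982, 16877 and 13551 at 28 m (−0.36 and −0.27, SE 0.13 each). It was not called (limma adjusted p = 0.0881 and 0.217), and the third 20-m library lay just above the lowest at 2 m. Atp5g3 made up 52.8% ± 1.40 (SD, n = 3), 50.8% ± 3.73 and 51.8% ± 2.24 of the 3 genes per kb at the 3 ages. Atp5s and Atp5sl, which share the symbol but are not regular subunits of the enzyme, were at 0.04 and −0.16 at 20 m and at −0.13 and −0.25 at 28 m.

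Many transcripts of these genes are short, and the shortest differed from the longest between libraries of an age and between ages. Of the 81 genes, 44 had a RefSeq transcript under 800 bp. Their median log2 fold change was −0.21 in both contrasts with 2 m, against −0.20 and −0.16 for the 20 genes from 800 up to 1500 bp and −0.06 and −0.13 for the 17 genes of 1500 bp or more. At 20 m the middle class was thus close to the short one. All 438 genes tested under 800 bp had medians of −0.16 and −0.14. Within an age, the library numbered 3 was lower than the other 2 in the short oxidative phosphorylation genes, by medians of −0.20 at 2 m, −0.12 at 20 m and −0.30 at 28 m. All tested genes under 800 bp had −0.16, −0.13 and −0.21. In the long oxidative phosphorylation genes it differed by −0.06, 0.11 and −0.12. The part of transcript length in the age differences was not tested.

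Genes that serve the same pathway, from lists chosen with earlier results of these data known, were called in both directions. Of 39 assembly factors tested, 3 were called lower at 20 m and 4 at 28 m, beside 7.13 and 6.24% of all genes, and 0 were called higher. Foxred1 and Ndufaf5, which help to build complex I, were called at both ages. Foxred1 had 602, 765 and 703 normalized counts at 2 m, 461, 557 and 514 at 20 m, and 473, 511 and 528 at 28 m (−0.43 and −0.45, SE 0.12 each, limma adjusted p = 0.0287 and 0.0271). Ndufaf5 had 1237, 1212 and 1276 at 2 m, 1061, 1001 and 992 at 20 m, and 991, 999 and 851 at 28 m (−0.29 and −0.39, SE 0.09 each, limma adjusted p = 0.0473 and 0.0127). The ages did not overlap with 2 m in either gene. Cox14, a complex IV assembly factor, was called at 20 m (−0.32), and the complex I factors Ndufaf4 (−0.44) and Timmdc1 (−0.36) at 28 m. Of 5 subunits outside the symbol rule, 2010107E04Rik, a small ATP synthase protein, was called lower at both ages (−0.34 and −0.34, limma adjusted p = 0.0241 and 0.0262).

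Among 15 regulators of mitochondrial genes, 4 were called higher at 20 m, 2 at 28 m and 0 lower, beside 9.42 and 7.53% of all genes called higher. The orphan nuclear receptors Esrrg and Esrrb, which bind promoters of oxidative genes, were called at both ages. Esrrg had 682, 1278 and 938 normalized counts at 2 m, 2488, 1628 and 2234 at 20 m, and 2141, 2112 and 2184 at 28 m (1.16 and 1.20, SE 0.19 each, limma adjusted p = 0.00184 and 0.00156). Esrrb stood at 1.31 and 1.28 (SE 0.25 each). Gabpa (0.33) and Ppara (0.64) were called at 20 m. The Esrrg libraries of 2 m lay below all others, with the second 2-m library highest of the 3, as in the slow fibre markers.

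Of 14 citric acid cycle genes tested, 2 were called higher at 20 m and 1 at 28 m, and 0 were called lower. Set against 9.42 and 7.53% of all genes called higher, these counts are near the background. Idh2, the NADP-dependent mitochondrial isocitrate dehydrogenase, had 6794, 11080 and 8896 normalized counts at 2 m, 19193, 12455 and 17856 at 20 m, and 15955, 16011 and 15927 at 28 m (0.89 and 0.87, SE 0.17 each, limma adjusted p = 0.00428 and 0.00551). Ogdh was called at 20 m (0.30). Of 18 electron carrier and coenzyme Q genes tested, 1 was called higher and 1 lower at 20 m, and 1 higher and 2 lower at 28 m, beside 9.42 and 7.53% of all genes called higher and 7.13 and 6.24% called lower. Gpd2, which feeds electrons of glycerol 3-phosphate to coenzyme Q, had 12910, 10730 and 15183 at 2 m, 9111, 10540 and 9642 at 20 m, and 8429, 7383 and 8106 at 28 m (−0.39 and −0.69, SE 0.11 each, limma adjusted p = 0.0323 and 0.00179). Etfdh was called higher at 20 m (0.46), Adck3 higher at 28 m (0.57), and Coq10b lower at 28 m (−0.55). No gene of these lists was called between 28 m and 20 m by limma, where 0.379% of all genes were.

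Promoter methylation was read from the MBD-seq bins of 500 bp that overlapped 500 bp on either side of the start site. There was 1 column of values from pooled mice per age and tissue (135254786 to 141889499 reads for muscle, 188758989 to 200456498 for T cells), so ages were not tested, and intervals are exact 95% Poisson intervals for counting error only. The windows of the 84 genes had a low signal: the median was 3.64 normalized counts per bin in muscle at 2 m, 2.53 at 20 m and 6.90 at 28 m, and 4.06, 3.85 and 3.97 in T cells. Other tested genes (12605) had 3.03, 2.81 and 6.16 in muscle. At 28 m the muscle window was above its 2-m value in 63 of 84 genes (75%), and in 72.8% of the others. The whole muscle library moved with this: the median over nuclear bins was 7.28, 8.42 and 13.4 at the 3 ages, their mean was 24.1, 22.3 and 17.6, and bins without a read made up 12, 10.2 and 0.485%.

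The windows with the most signal in young muscle belonged to X-linked genes and to testis forms. Ndufb11 stood at 57.9 normalized counts per bin (interval 50 to 66.7), Cox8c at 57.3, Ndufa1 at 54.6 (46.9 to 63.1) and Cox7b2 at 52.2. Female muscle carries an inactive X chromosome, whose CpG islands are known to be methylated, and the testis forms had no or almost no RNA here. Cox7b, also X-linked, was at 13. At 28 m the 4 windows were at 24.2, 22.9, 21.0 and 24.2 in muscle. In T cells they stayed between 49.5 and 90.5 at all ages. The 4 windows were picked for high signal at 2 m, and the whole 28-m muscle library had a lower mean over nuclear bins (17.6 against 24.1). The highest window of other tested genes was at 454 in muscle at 2 m (Oasl1) and at 238 at 28 m (Sp140). Other windows with as much signal at 2 m were not compared.

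Between 28 m and 2 m in muscle, Ndufc2 had the lowest difference of the 84, at −2.01 on the scale of log2(normalized count per bin + 1). Its window is wider than the stretch printed above and held 62 CpGs, beside a median of 67.0 over the 84 genes. On the linear scale the differences of Ndufb11, Cox8c, Ndufa1 and Cox7b2 were larger. Ndufc2 went from 32.1 normalized counts per bin at 2 m (26.3 to 38.9, 106 reads) to 12.3 at 20 m (8.97 to 16.6, 44 reads) and 7.22 at 28 m (5.0 to 10.1, 34 reads). In T cells it was at 12.5, 15.0 and 17.6. RNA of Ndufc2 was called lower at 20 m (−0.33) but not at 28 m (−0.26, limma adjusted p = 0.118). A link between signal and RNA was not tested. Ndufc1 was at 7.58 (4.90 to 11.2), 10.4 (7.31 to 14.3) and 11 (8.25 to 14.5) in muscle, with intervals that overlap, and at 28.4, 21.1 and 30.8 in T cells.

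The muscle forms Cox8b and Cox6a2 carried more signal in T cells than in muscle. Cox8b had 13.6 normalized counts per bin in muscle at 2 m (9.95 to 18.3) and 51.8 in T cells (43.9 to 60.7), and Cox6a2 had 28.5 (23.0 to 34.9) and 53.8 (45.8 to 62.9). The general form Cox8a had 6.97 (4.42 to 10.5) and 2.71 (1.17 to 5.33). Cox7a1, also a muscle form, was low in both tissues (1.82 and 3.72). Over all 84 genes, 12 windows (14.3%) were more than 1 log2 unit lower in muscle than in T cells at 2 m, against 18.6% of other genes.

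**Figure D5:**
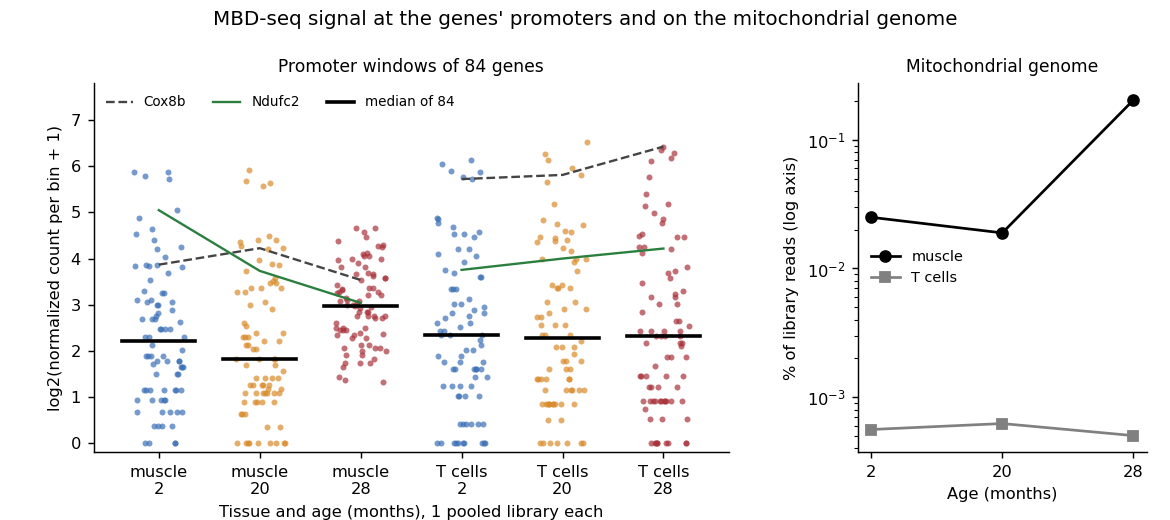
Left, log2(normalized count per 500-bp bin + 1) of the promoter windows of 84 genes in 6 MBD-seq columns of pooled mice, with medians as black lines and Cox8b and Ndufc2 joined across age. Right, reads on the mitochondrial genome as % of the library on a log axis. The 28-m muscle library lacks windows at 0 and has 0.204% mitochondrial reads against 0.0250% at 2 m.

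Reads on the mitochondrial genome, which encodes further core subunits of complexes I, III, IV and V, were more frequent in the 28-m muscle pool. They were 33797 (0.0250% of the library) at 2 m, 25551 (0.0189%) at 20 m and 288990 (0.204%) at 28 m. The 28-m share was 8.15 times that of 2 m, and all 33 bins of the mitochondrial genome were higher. On the normalized scale it was 5.99 times, beside 1.84 times for the nuclear bin median. T cells held 0.000560, 0.000623 and 0.000502%. Reads per bin depend on how much mitochondrial DNA went into the capture as well as on methylation, and these cannot be told apart here.

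The promoters as a set were searched for short motifs. RefSeq stretches of 300 bases (250 before and 50 after the start) were found for 69 of the 84 genes, beside 32851 promoters in all. The genes had a median of 19.0 CpGs and 57% GC, against 7.0 and 52.7% for all promoters. All promoters were not limited to genes tested in RNA-seq. In the wider MBD-seq windows the order was the reverse, with a median of 67.0 CpGs for the 84 genes and 76.0 for other tested genes. The motif shares below have only all promoters beside them, so the part of CpG content in them was not tested. CGCATGCG, a core of the site of nuclear respiratory factor 1, was in 8 of 69 (11.6%) and in 1.87% of all. AAGATGGCG, known from YY1 sites, was in 7 (10.1%) and in 1.40%. CCGGAAGT, an ETS site of the kind bound by GABP, was in 5 (7.25%) and in 3.89%. TCAAGGTCA, the site of estrogen-related receptors, was in 2 (2.90%, Atp5g3 and Sdhd) and in 0.423%. The myogenic E-box CAGCTG was in 6 (8.70%) against 16.3%, and TATAAA in 7 (10.1%) against 13.6%. Both strands were searched, and 0 pairs of matches of different motifs shared bases. A match is a match of letters only.

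The genes with the nuclear respiratory factor 1 core were Atp5g2, Atp5k, Atp5l, Cox6a1, Ndufa11, Ndufa8, Uqcr11 and Uqcrc1. Cox6a1 is shown because its window had the highest difference of the 84 between 28 m and 2 m in muscle on the scale of log2(normalized count per bin + 1), at 2.61. It went from 0 reads at 2 m and 20 m (which allow up to 0.909 and 0.842 normalized counts per bin by a one-sided limit of 3 reads, unlike the two-sided intervals) to 5.10 at 28 m (3.27 to 7.59, 24 reads). Its RNA was 704, 663 and 643 normalized counts at 2 m, 583, 442 and 505 at 20 m, and 457, 623 and 559 at 28 m (−0.40 and −0.30, SE 0.14 each, limma adjusted p = 0.0619 and 0.165). The stretch is chr5:115348982-115349208 (minus strand, GRCm38.p6), with the core in capitals.
Cox6a1: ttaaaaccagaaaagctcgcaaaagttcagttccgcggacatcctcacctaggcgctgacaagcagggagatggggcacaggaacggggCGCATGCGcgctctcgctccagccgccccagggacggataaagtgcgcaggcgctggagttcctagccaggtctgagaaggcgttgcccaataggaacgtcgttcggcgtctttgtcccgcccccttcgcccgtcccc
The core starts 161 bases before the RefSeq start site.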

How the data were processed

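Muscle RNA-seq (9 libraries, 3 mice per age) and MBD-seq of muscle and T cells (pools of 3 mice) were analysed as deposited. Per the labels and the study's methods, the authors trimmed reads with Trim Galore, used Bowtie2 for MBD-seq and a spliced aligner for RNA-seq to map them to mm10, and counted them per 500-bp bin with bedtools or per refSeq gene with HTSeq. The deposited signal values are these counts divided by a DESeq2 size factor per library. All nonzero values (100%) were whole multiples of 1 step within 0.01 reads, so the reads were recovered. The library preparation does not keep strand, so reads of overlapping genes cannot be separated: Ndufb6 shares 39.0% of its exon bases with Smim27 and Ndufa13 30.0% with Tssk6. The 5 summary lines of the counter (12.5 to 18.0% of reads without a feature, 20.5 to 22.3% not unique) were left out of sums and tests. Reads shared with pseudogenes, of which Uqcrh and Atp5l have 2 each by name, can fall among the reads that are not unique.

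Log2(normalized count + 1) was fitted with limma 3.58.1 (limma-trend, R 4.3.3) over all 9 libraries with age as the only term, for 13178 genes with a mean of at least 10, with Benjamini-Hochberg adjustment. The test was checked on simulated data. Count alternatives ran on the recovered reads with edgeR 4.0.16 and with DESeq2 1.42.0. Other alternatives changed the pseudocount, filter, scaling, model and libraries. Lengths were those of the longest RefSeq transcript. The muscle MBD-seq samples comprise 2 rounds of capture, while the table has 1 muscle column per age that does not name the round, so whether it holds the first, the repeat or both is not known and the rounds could not be compared. The genes and the lists were chosen with earlier results of these data known. Named genes were the called genes with the most extreme fold changes per contrast and complex (or the smallest adjusted p where none was called), the complex II subunits, the isoform families and the core subunits. Ndufs5, Atp5d, Atp5e, the promoters named and the printed sequences were chosen after their values were seen. Some values are not reported here.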

Additional observations from a re-analysis of the deposited data

How the results depend on the processing

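The direction of the medians over the 81 genes against 2 m held under all scalings, filters, models and left-out libraries tried, while the number of genes called did not. Genes called lower at 20 m against 2 m, 5 as reported, were 2 with no filter on low counts, 0 with equal sums, 15 with quantile normalization, 11 with a term for the libraries numbered 3, 2 without those libraries, 10 with DESeq2, 9 with edgeR and that term (added after the data were seen), and 1 to 14 with 1 library left out. Calls among all genes in either direction were 16.6% as reported and, in the same order, 9.61, 4.45, 16.0, 21.6, 8.34, 19.4, 21.7 and 8.20 to 16.9%. At 28 m against 2 m, 1 as reported, they were 0 with equal sums, 9 with the term, 6 with edgeR and the term, 2 with DESeq2, and 1 to 22 with 1 library left out, beside 13.8% of all genes as reported and 4.20, 18.4, 17.9, 16.1 and 7.31 to 14%. Between 28 m and 20 m they were 0 in every alternative. The medians moved from −0.23 to −0.11, from −0.28 to −0.09 and from −0.09 to 0.10 for the 3 contrasts with 1 library left out. Of 2769 results for single genes, 2692 kept their side of the threshold, 36 lost a call and 41 gained one, and no called value changed sign. Most of these results were for genes not called as reported (5, 1 and 0 were called in the 3 contrasts), which had no call to lose. The 2692 are thus no measure of how stable the calls were. The cause of these differences was not tested.

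Replicate numbers are not said to pair the mice. Correlations of deviations between same-numbered libraries were 0.028, −0.009 and 0.069 for number 1, 0.025, 0.10 and −0.040 for number 2, and 0.109, 0.15 and 0.161 for number 3. With the replicate number as a block, 22 genes were called lower at 20 m and 13 at 28 m, and calls among all genes were 22.8 and 19.2%.

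The median promoter difference in muscle at 20 m against 2 m, −0.20, was 0.00 in the single start bin and −0.10 with equal sums. At 28 m it was 0.75, and 1.1, 1.19 and 0.84 with the start bin, equal sums and a pseudocount of 0.25. In T cells at 20 m it was 0.16, and 0.00 with the start bin and −0.02 with equal sums, and at 28 m it was 0.08, and −0.16 with equal sums. Depth limits the promoter windows, many of which rest on few reads.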
